A study of Rattus norvegicus with 12 samples.

Results

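The 33 genes described here encode the enzymes and carriers that activate long-chain fatty acids, move them into mitochondria and break them down by beta-oxidation. They were listed by name, and a gene counted as measured when an array probe set (a group of short probes for 1 transcript) was annotated with its symbol alone. Of the 33 genes, 32 had such a probe set, with 43 probe sets in all among the 31042 on the array. Acaa1a had none, since its probe set is shared with a near copy, and 3 probe sets that name a listed gene together with a second one were left out. After a filter on dim probe sets, 38 probe sets of 31 genes entered the tests, among 18626 probe sets and 10244 genes. Acot1, with values of 3.32 to 3.72 against a filter at 4.94, stayed under it.

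RNA came from the left ventricle of female Sprague-Dawley rats aged 16 months (Charles River). Rats of the EX group had voluntary exercise available throughout life. Rats of the PA group were active in a large box for 1 h on 2 occasions a week, and SED rats lived in a standard cage without either. Each group has 4 Affymetrix arrays of pooled animals, although the design text (12 rats a group, 4 to an array) would fill 3, so p-values measure the spread between these pooled arrays. Which animals stand behind which array is not settled. The 4 arrays of a group may therefore not be independent, although the fits treat them as such. No treatment or genotype other than access to activity separates the groups in the labels.

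The adult heart draws most of its energy from fatty acids. Acyl-CoA synthetases trap a fatty acid as its CoA ester, the carnitine shuttle carries the acyl group across the mitochondrial membranes, and each round of the oxidation spiral removes an acetyl-CoA and passes electrons to flavoproteins and NADH. Peroxisomes shorten very long chains by a parallel set of enzymes. Many of these genes are known targets of the fatty acid receptor PPAR-alpha and of the coactivator PGC-1alpha.

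The arrays were alike in level, with medians of 5.64 to 5.72 log2 units. SED 1 stood apart: its mean correlation with the other 11 arrays was 0.964, against 0.987 to 0.989 for those arrays. The Gapdh control probe sets, whose 3' signal minus 5' signal is a sign of RNA quality, also set it apart as the highest, at 1.56 against 0.96 to 1.35, and EX 1 was next at 1.35. The same measure from the beta-actin control probe sets set SED 1 less apart, at 1.70 against 1.37 to 1.67 on the other arrays. Without SED 1 the difference of 18 of the 31 tested members changed sign or moved by over 1.5 times in EX against SED. In PA against SED that of 17 did, so values without SED 1 stand beside many of the differences. Other arrays weighed too, with 14 such members without SED 2 and 14 without SED 4 in EX against SED. In PA against SED the number was 9 without SED 2, and in EX against PA it was 24 without EX 1. The ventricular muscle genes Myh6, Myl2, Myl3, Tnnt2, Tnni3, Ryr2 and Pln all read between 12.90 and 13.22 on every array. Of 8 adipocyte markers with a probe set, Adipoq, Plin1, Lep, Cidec and Pck1 were under the filter. Above it were Fabp4 (10.84 to 11.93), Cfd (6.46 to 8.05) and Lipe (6.42 to 7.03). The summed log2 level of the list was 41.8 to 42.94 in EX, 41.84 to 44.24 in PA and 42.02 to 44.04 in SED. For 3 brown adipocyte markers, of which Cidea (9.93 to 10.87) and Ucp1 (4.65 to 5.54) passed the filter, it was 18.13 to 19.07, 17.74 to 18.56 and 18.33 to 19.69, highest on SED 1. The summed level of 10 leukocyte markers was 75.02 to 76.60 in EX, 76.01 to 79.44 in PA and 75.90 to 84.74 in SED, where SED 3 was the highest array. The summed level of 4 atrial markers was 26.79 to 35.88 in EX, 29.51 to 31.65 in PA and 29.50 to 32.10 in SED, and the part of these lists in the results was not tested.

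None of the 31 tested genes differed between groups past an adjusted p of 0.05 in limma. In PA against SED 24 of the 31 genes had a higher PA mean and 7 a lower one, with a median difference of 0.12 log2 units. In EX against SED 20 were higher and 11 lower, with a median of 0.045, and in EX against PA 7 were higher and 24 lower, with a median of -0.05. Every group enters 2 of these comparisons, so the counts are not independent of each other. In a ventricle sample, fewer muscle cells and less RNA per cell cannot be told apart.

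These counts are read against all 10244 tested genes. A higher mean was found for 59.7% of them in PA against SED (77.4% of the members), for 56.9% in EX against SED (64.5% of the members) and for 44.1% in EX against PA (22.6% of the members). The median over all tested genes was 0.0475, 0.0325 and -0.0175 in those comparisons. After quantile normalization, which gives all arrays 1 distribution, 47.5% of all genes and 22 of the 31 members had the higher mean in PA against SED, 45.5% and 19 were higher in EX than in SED, and 45.9% and 7 were higher in EX than in PA. Without SED 1 the members split into 27 higher and 4 lower in PA against SED and into 20 and 11 in EX against SED. The shares over all genes given above include SED 1, on which the mean deviation over all tested genes was -0.115. They are therefore no background for the counts without it. No share over all genes without SED 1 is given here, so those counts are not a result about the members. No chance test was made of the list, so these shares are descriptions.

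With all 12 arrays and the values as deposited, 0% of the 18626 tested probe sets passed an adjusted p of 0.05 in any of the comparisons or in limma's F test over the groups. At an unadjusted p under 0.05, 0 of the 38 member probe sets were called in EX against SED, where 9.3% of all tested probe sets were higher and 6.3% lower. In PA against SED 3 of the 38 (7.89%) were higher at that level and 0 lower, beside 9.28% and 5.97% of all tested probe sets. In EX against PA 1 of the 38 (2.63%) was lower and 0 higher, beside 1.43% in each direction. In the F test 1 of the 38 (2.63%), that of Ehhadh, had an unadjusted p under 0.05, beside 13.4% of all tested probe sets. The smallest adjusted p among member probe sets was 0.417 for Etfa in EX against SED, 0.262 for an Acsl1 probe set in PA against SED and 1 in EX against PA.

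The spread between arrays bounds the difference in signal on a probe set, if the arrays of a group are independent. Whether signal on the brightest probe sets follows the amount of RNA in full was not tested, so the intervals do not bound changes in RNA. The 95% interval of the difference, not adjusted for the number of genes, was taken on the brightest probe set of each gene. It lay within 1.5-fold in either direction for 29 of the 31 genes in each comparison. The exceptions were Acsl5 in each of them, Etfb in EX against SED, Cpt2 in PA against SED and Ehhadh in EX against PA. Intervals of some dimmer probe sets also passed 1.5-fold (0.585 log2 units). They reached 0.997 for Acaa2 and 1.53 for Hadha in EX against SED, and 0.837 for Hadh and 0.685 for Acot2 in PA against SED. In PA against SED a dimmer probe set gave 0.44 against 0.15 on the brightest for Hadh and 0.32 against 0.20 for Acsl1. The values were 0.31 against 0.07 for Acaa2, 0.23 against 0.15 for Hadha and 0.32 against -0.035 for Acot2. A further Acot2 probe set gave -0.035 too, and the dimmer Acsl5 probe set gave -0.205 against -0.27. On the brightest probe sets standard errors ran from 0.0693 for Acadl to 0.251 for Acsl5. Single arrays weighed on most of the differences: at least 1 array, when left out, changed the sign or moved the size by over 1.5 times for 26 of the 31 genes in EX against SED, 22 in PA against SED and 29 in EX against PA.

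**Figure D1:**
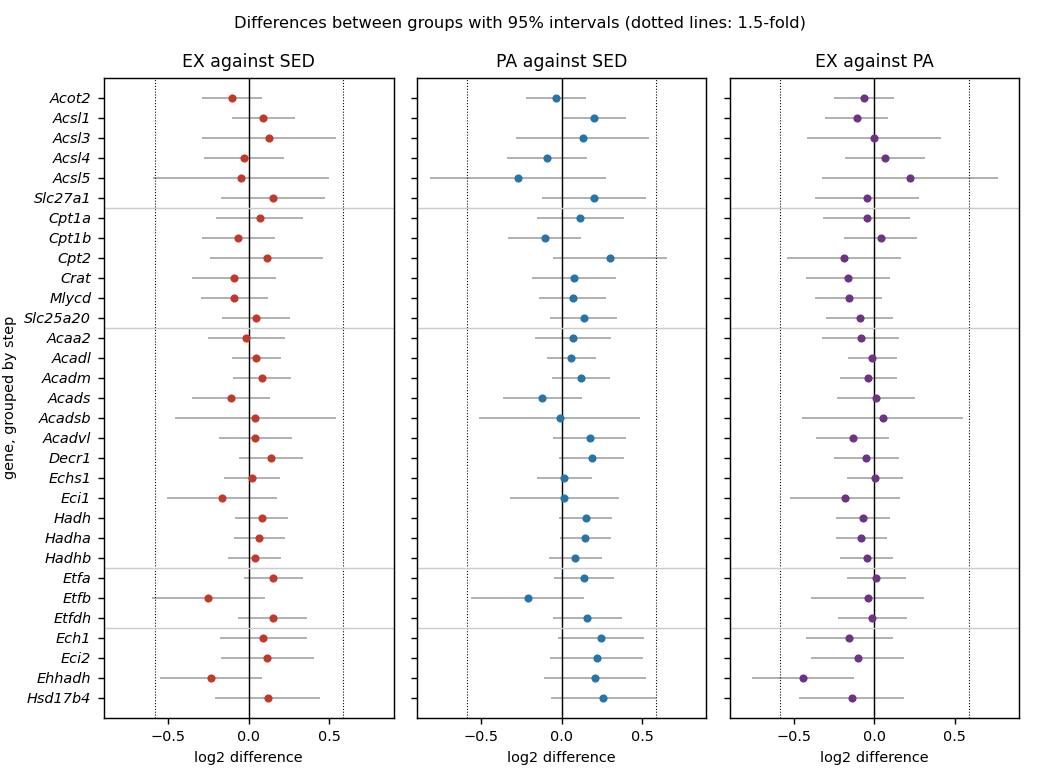
Log2 differences between group means for the 31 measured genes (points) with 95% intervals from limma (lines), in EX against SED, PA against SED and EX against PA, from 4 arrays per group, with genes grouped by step and dotted lines at 1.5-fold. Most intervals include 0, the exceptions being Acsl1 in PA against SED and Ehhadh in EX against PA, and 24 of the 31 points lie above 0 in PA against SED and 24 below it in EX against PA.

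Activation comes before all other steps. Acsl1, the main long-chain acyl-CoA synthetase of heart muscle, read 11.99, 12.10, 12.20 and 12.19 on the EX arrays, 12.33, 12.25, 12.10 and 12.24 on the PA arrays, and 11.89, 12.10, 12.02 and 12.11 on the SED arrays. The PA values lay mostly above the SED values, with PA 3 inside the SED range, and the EX values spanned both. The difference was 0.20 ± 0.0904 (SE) in PA against SED, or 1.15-fold, with an unadjusted limma p of 0.0473 and an adjusted p of 0.321. Without SED 1 it was 0.153 (limma, adjusted p = 0.505). In EX against SED it was 0.09 ± 0.0904 (0.0433 without SED 1) and in EX against PA -0.11 ± 0.0904 (-0.0667 without EX 1).

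A dimmer Acsl1 probe set gave the same order of group means. It read 10.32, 10.62, 10.78 and 10.75 in EX, 10.92, 10.74, 10.65 and 10.88 in PA, and 10.27, 10.59, 10.45 and 10.59 in SED. Here all 4 PA arrays lay above all 4 SED arrays, and the difference of 0.32 ± 0.122 (SE) had an adjusted limma p of 0.262. Both Acsl1 probe sets were lowest on SED 1 and next lowest on EX 1.

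The other enzymes of activation gave a mixed picture. Acsl5, an isoform also found in liver and gut, had means of 8.77 ± 0.10 in EX, 8.55 ± 0.27 in PA and 8.82 ± 0.61 in SED (SD, n = 4 each), and the wide SED spread came from SED 1 at 9.70. Its difference was -0.27 ± 0.251 (SE) in PA against SED and 0.0208 without SED 1, and in EX against SED it was -0.05 ± 0.251 and 0.243 without SED 1. A dimmer Acsl5 probe set, on which SED 1 did not stand apart, gave -0.205 ± 0.0961 in PA against SED (limma, adjusted p = 0.336). Acsl4, which prefers arachidonic acid, had means of 9.40 ± 0.18, 9.34 ± 0.12 and 9.43 ± 0.15 in EX, PA and SED, and Acsl3, a synthetase of the endoplasmic reticulum and lipid droplets, had 6.26 ± 0.17, 6.26 ± 0.41 and 6.13 ± 0.23 (SD, n = 4 each). Slc27a1, a fatty acid transport protein with synthetase activity, had means of 9.72 ± 0.22 in EX, 9.77 ± 0.18 in PA and 9.56 ± 0.24 in SED. Its differences were 0.15 ± 0.148 (SE) in EX against SED and 0.20 ± 0.148 in PA against SED, and 0.268 and 0.315 without SED 1. On the brightest probe sets of Acsl5, Acsl4, Acsl3 and Slc27a1 the adjusted limma p ran from 0.522 to 1 over the comparisons with all arrays.

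Acot2, a mitochondrial thioesterase that releases the fatty acid again, had a mean of 12.58 ± 0.06 in EX, 12.64 ± 0.07 in PA and 12.68 ± 0.12 in SED (SD, n = 4 each). A dimmer probe set of the gene read 7.61, 8.47, 8.29 and 8.28 in EX, 8.39, 8.52, 8.37 and 8.77 in PA, and 8.24, 8.09, 8.23 and 8.2 in SED. The PA arrays lay above all SED arrays on that probe set only, where the PA against SED difference was 0.32 against -0.035 on the brighter one. Acot1, its cytosolic neighbour, has a closely similar sequence, so which of them gives the signal on these probe sets is uncertain. Acot1's own probe set read 3.52, 3.34, 3.32 and 3.72 in EX, 3.68, 3.66, 3.42 and 3.52 in PA, and 3.54, 3.55, 3.46 and 3.45 in SED, with overlap of all groups. Over the 6 tested genes of this step 3 were higher and 3 lower in EX against SED and in PA against SED, with medians of 0.0312 and 0.0475, and without SED 1 the split was 5 and 1 in each, with medians of 0.114 and 0.0871.

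The carnitine shuttle controls entry into the mitochondrion. Cpt1b, the muscle form of the carnitine palmitoyltransferase of the outer membrane, read 11.73, 11.69, 11.58 and 11.59 in EX, 11.47, 11.78, 11.59 and 11.59 in PA, and 11.96, 11.65, 11.66 and 11.58 in SED. The groups overlapped, and SED 1 was the highest array. The difference was -0.065 ± 0.104 (SE) in EX against SED and -0.105 ± 0.104 in PA against SED, with adjusted limma p-values of 0.795 and 0.636. Without SED 1 they were 0.0175 and -0.0225.

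Cpt1a, the form of liver and other tissues that the heart also carries, read 10.43, 10.36, 10.56 and 10.44 in EX, 10.50, 10.83, 10.32 and 10.33 in PA, and 10.59, 10.32, 10.36 and 10.25 in SED. PA 2 was the highest array and the groups overlapped. The differences were 0.0675 ± 0.124 (SE) in EX against SED and 0.115 ± 0.124 in PA against SED (limma, adjusted p = 0.822 and 0.664). Without SED 1 they were 0.138 and 0.185, and without PA 2 the PA against SED difference was 0.00333.

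Cpt2, the inner-membrane enzyme that restores the CoA ester, read 10.20, 10.38, 10.50 and 10.51 in EX, 10.70, 10.56, 10.49 and 10.60 in PA, and 9.75, 10.52, 10.30 and 10.58 in SED. PA arrays were high, and SED 1 was lower than every other array by a wide margin. The PA against SED difference was 0.30 ± 0.162 (SE), the largest among the representative probe sets in that comparison, with an adjusted limma p of 0.393. Without SED 1 it was 0.121 (limma, adjusted p = 0.694), and the EX against SED difference was 0.11 with SED 1 and -0.069 without it.

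Slc25a20, the carnitine-acylcarnitine translocase between those enzymes, read 9.80, 9.88, 9.67 and 9.90 in EX, 9.74, 10.05, 10 and 9.83 in PA, and 9.82, 9.79, 9.80 and 9.66 in SED. The groups overlapped, with differences of 0.045 ± 0.0959 (SE) in EX against SED and 0.14 ± 0.0959 in PA against SED (limma, adjusted p = 0.849 and 0.498). Crat, which buffers acetyl-CoA as acetylcarnitine, read 8.94, 9.13, 9.31 and 9.27 in EX, 9.42, 9.28, 9.14 and 9.47 in PA, and 9.16, 9.40, 9.07 and 9.38 in SED. Its EX against PA difference was -0.165 ± 0.119 (SE), with an adjusted limma p of 1, and -0.0908 without EX 1.

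Mlycd, which degrades malonyl-CoA and so relieves the block on the outer transferase, read 9.06, 9.04, 9.06 and 9.13 in EX, 9.28, 9.41, 9.08 and 9.16 in PA, and 9.19, 9.18, 9.0 and 9.28 in SED. The EX arrays were close together and low, but PA 3 lay among them and SED 3 below them. The EX against PA difference was -0.16 ± 0.0952 (SE) with an adjusted limma p of 1, and the EX against SED difference was -0.09 ± 0.0952 (limma, adjusted p = 0.676). Over the 6 genes of the shuttle 3 were higher and 3 lower in EX against SED, 5 and 1 in PA against SED, and 1 and 5 in EX against PA. After quantile normalization the PA against SED split was 3 and 3, with a median of 0.0329 against 0.095.

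**Figure D2:**
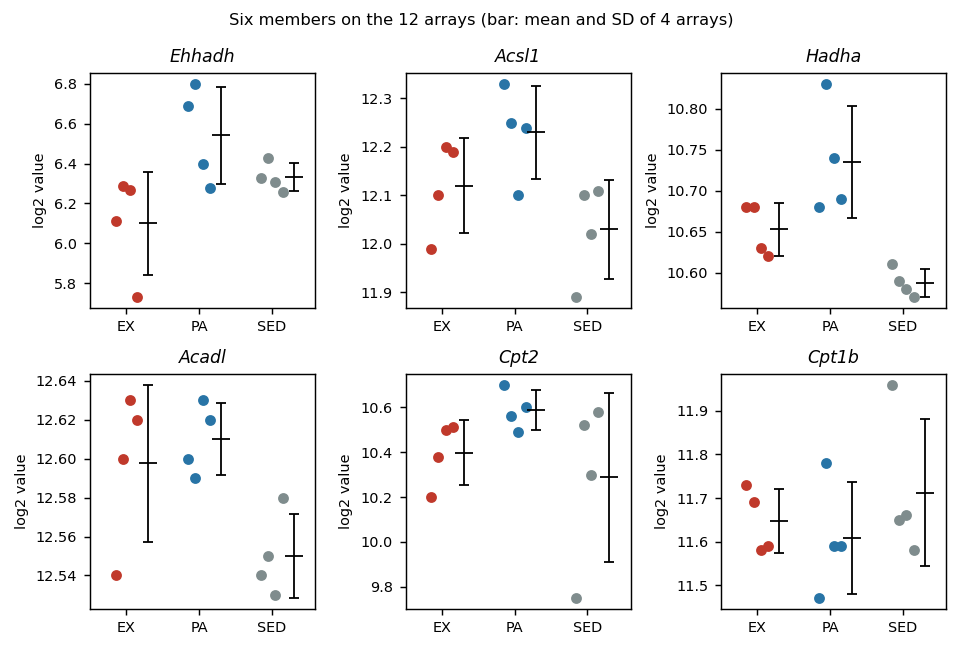
Log2 values of Ehhadh, Acsl1, Hadha, Acadl, Cpt2 and Cpt1b on each of the 4 EX, 4 PA and 4 SED arrays (points, arrays 1 to 4 from left to right in each group) with the mean and SD beside them, on axes that differ between genes and do not start at 0. SED 1 is the lowest point for Cpt2 at 9.75 and the highest for Cpt1b at 11.96, and the 4 SED values of Hadha, 10.57 to 10.61, lie under all EX and PA values.

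Inside the mitochondrion, the chain-length specific acyl-CoA dehydrogenases open each round by placing a double bond in the acyl chain. Acadvl, for very long chains, read 10.60, 10.83, 10.84 and 10.75 in EX, 10.98, 10.89, 10.71 and 10.98 in PA, and 10.55, 10.82, 10.63 and 10.86 in SED. Acadl, for long chains, read 12.54, 12.60, 12.63 and 12.62 in EX, 12.60, 12.59, 12.63 and 12.62 in PA, and 12.54, 12.55, 12.53 and 12.58 in SED. Acadm, for medium chains, read 12.08, 12.18, 12.25 and 12.27 in EX, 12.35, 12.18, 12.20 and 12.20 in PA, and 12.04, 12.15, 12.08 and 12.18 in SED. In Acadl the PA arrays did not overlap the SED arrays, by a gap of 0.01 between single arrays, while EX 1 lay within the SED range, and in the other genes PA and SED overlapped.

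The PA against SED differences were 0.175 ± 0.104 (SE) for Acadvl, 0.06 ± 0.0693 for Acadl and 0.12 ± 0.0821 for Acadm, with adjusted limma p-values of 0.435, 0.691 and 0.490. In EX against SED they were 0.04, 0.0475 and 0.0825, with adjusted limma p-values of 0.879, 0.772 and 0.652, and without SED 1 the Acadvl value was -0.015. Acads, the short-chain enzyme, had means of 9.02 ± 0.12 in EX, 9.01 ± 0.16 in PA and 9.13 ± 0.16 in SED (SD, n = 4 each), below SED in both. Acadsb, which acts on branched short chains, lay just above the filter, with means of 5.05 ± 0.32, 5.0 ± 0.23 and 5.01 ± 0.47 in EX, PA and SED.

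The mitochondrial trifunctional protein carries out the later reactions on long chains. Its alpha subunit Hadha, with hydratase and dehydrogenase activity, read 10.68, 10.68, 10.63 and 10.62 in EX, 10.68, 10.83, 10.74 and 10.69 in PA, and 10.61, 10.59, 10.58 and 10.57 in SED. Its beta subunit Hadhb, the thiolase, read 11.98, 12.07, 12.01 and 12.06 in EX, 12.01, 12.10, 12.10 and 12.10 in PA, and 12.10, 11.95, 11.94 and 11.98 in SED. Hadha was higher on all 4 EX and all 4 PA arrays than on any SED array, though EX 4 at 10.62 lay just above SED 1 at 10.61. In Hadhb SED 1 shared the highest value with PA 2, PA 3 and PA 4 while SED 2 to SED 4 were low.

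The size of the Hadha difference was small. It was 0.15 ± 0.0725 (SE) in PA against SED and 0.065 ± 0.0725 in EX against SED, with adjusted limma p-values of 0.356 and 0.695. Hadhb differed by 0.085 ± 0.0753 and 0.0375 ± 0.0753 in the same comparisons (limma, adjusted p = 0.590 and 0.839), and by 0.121 and 0.0733 without SED 1. In EX against SED, Hadha was the 1 member of 31 (3.23%) whose groups did not overlap with EX higher, beside 3.45% of all genes, and 0 of 31 with EX lower, beside 3.31%. In PA against SED, Hadha and Acadl were 2 of 31 (6.45%), beside 4.02% of all genes, and 0 of 31 had PA lower, beside 2.87%. In EX against PA 0 of 31 were separate, beside 1.04% of all genes higher and 1.69% lower. All these counts are on the brightest probe set of each gene. The dimmer Acsl1 and Acot2 probe sets on which PA lay above SED are outside them.

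A further and dimmer Hadha probe set varied widely, and read 7.43, 5.67, 7.15 and 7.69 in EX, 7.59, 6.94, 6.66 and 6.51 in PA, and 4.99, 6.89, 7.90 and 7.01 in SED. Its spread within each group exceeded every difference between groups.

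The subunit genes lie head to head on rat chromosome 6, and their promoter windows, which run from 250 bases before to 50 after the RefSeq start, share 200 bases. They are shown because the subunits work as 1 complex and can be set side by side in these arrays. Capitals mark GGGCGG (a GC box), CCAAT and AGGTCA (the hexamer that PPAR and related nuclear receptors recognise) on either strand, with no overlap between them here. The Hadha window lies at chr6:31907551-31907850 on the plus strand and the Hadhb window at chr6:31907451-31907750 on the minus strand (GRCr8, RefSeq).
Hadha: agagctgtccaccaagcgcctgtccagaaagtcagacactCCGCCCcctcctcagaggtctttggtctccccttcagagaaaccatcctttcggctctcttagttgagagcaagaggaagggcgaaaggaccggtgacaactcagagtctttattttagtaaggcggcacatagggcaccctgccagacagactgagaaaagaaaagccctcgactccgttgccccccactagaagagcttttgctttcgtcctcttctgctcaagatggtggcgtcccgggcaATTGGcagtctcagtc
Hadhb: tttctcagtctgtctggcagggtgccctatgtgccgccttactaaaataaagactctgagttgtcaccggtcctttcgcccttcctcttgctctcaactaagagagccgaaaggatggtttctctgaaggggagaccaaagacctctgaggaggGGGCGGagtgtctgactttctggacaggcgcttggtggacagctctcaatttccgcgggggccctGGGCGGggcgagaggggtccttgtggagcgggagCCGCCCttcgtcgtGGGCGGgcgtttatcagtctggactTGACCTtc

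The Hadha window held 1 GC box and 1 CCAAT match, and the Hadhb window 4 GC boxes and 1 AGGTCA match. The GC box of the Hadha window lies in the shared bases and is the same site as the first GC box of the Hadhb window. The matches are letters in a window and say nothing about whether a factor binds there.

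The remaining enzymes of the spiral differed little. Hadh, the short-chain hydroxyacyl-CoA dehydrogenase, read 11.50, 11.62, 11.59 and 11.61 in EX, 11.59, 11.68, 11.68 and 11.65 in PA, and 11.48, 11.61, 11.46 and 11.45 in SED. SED 2 alone of the SED arrays reached the PA range, and the PA against SED difference was 0.15 ± 0.0762 (SE) with an adjusted limma p of 0.368. A dimmer Hadh probe set gave 0.44 ± 0.181 in that comparison, with an unadjusted limma p of 0.031 and an adjusted p of 0.284. Its means were 8.46 ± 0.17 in PA and 8.02 ± 0.29 in SED (SD, n = 4 each). SED 1, at 7.64, was the lowest of all arrays on that probe set, and the other SED arrays read 7.93 to 8.27.

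Decr1, the dienoyl-CoA reductase needed for unsaturated fatty acids, read 10.97, 11.14, 11.07 and 11.11 in EX, 10.99, 11.20, 11.25 and 11.05 in PA, and 10.97, 10.78, 11.01 and 10.98 in SED. EX and PA arrays were mostly above the SED arrays, with EX 1 and PA 1 inside their range. The differences were 0.14 ± 0.0921 (SE) in EX against SED and 0.19 ± 0.0921 in PA against SED, with adjusted limma p-values of 0.496 and 0.355.

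Echs1, the short-chain enoyl-CoA hydratase, had means of 12.33 ± 0.05 in EX, 12.33 ± 0.05 in PA and 12.31 ± 0.09 in SED (SD, n = 4 each). Eci1, the mitochondrial enoyl-CoA isomerase, had 10.42 ± 0.18, 10.60 ± 0.24 and 10.59 ± 0.26, and Acaa2, the mitochondrial thiolase of the last step, had 11.89 ± 0.20, 11.97 ± 0.11 and 11.90 ± 0.09 in EX, PA and SED. A dimmer Acaa2 probe set disagreed with it in EX against SED, at 0.41 against -0.015, and read 7.25 on SED 1 against 8.25 to 8.70 on the other SED arrays. Over the 12 genes of mitochondrial oxidation 9 were higher and 3 lower in EX against SED (median 0.04), 10 and 2 in PA against SED (median 0.0775), and 3 and 9 in EX against PA (median -0.0488).

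The electrons of the acyl-CoA dehydrogenases pass through the electron transfer flavoprotein, made of Etfa and Etfb, to its ubiquinone oxidoreductase Etfdh. Etfa read 11.92, 12.02, 11.97 and 12.15 in EX, 12.06, 11.97, 12.09 and 11.89 in PA, and 11.78, 11.88, 11.92 and 11.87 in SED. Etfb read 11.02, 10.87, 10.65 and 10.62 in EX, 10.74, 10.97, 10.98 and 10.64 in PA, and 11.49, 10.86, 11.06 and 10.76 in SED. Etfdh read 11.31, 11.46, 11.44 and 11.42 in EX, 11.36, 11.47, 11.51 and 11.34 in PA, and 11.01, 11.35, 11.38 and 11.30 in SED. On SED 1 Etfa and Etfdh were at their lowest and Etfb at its highest, so the subunits of 1 flavoprotein stood at opposite ends on the same array.

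Etfa differed by 0.15 ± 0.085 (SE) in EX against SED, the smallest p of the members in that comparison, with an adjusted limma p of 0.417. Etfdh differed by 0.15 ± 0.0979 in EX against SED and 0.16 ± 0.0979 in PA against SED (limma, adjusted p = 0.492 and 0.444), and by 0.0642 and 0.0767 without SED 1. Etfb differed by -0.25 ± 0.161 and -0.21 ± 0.161 in those comparisons (limma, adjusted p = 0.476 and 0.536), and by -0.10 and -0.061 without SED 1.

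For all 4 tested peroxisomal or dual genes the PA mean exceeded the SED mean, with a median of 0.231, and the EX mean was under the PA mean, with a median of -0.148, and 0 of them passed the test. In EX against SED 3 were higher and 1 lower. Without SED 1 the 4 genes stayed higher in PA than in SED, with a median of 0.157, and split into 2 higher and 2 lower in EX against SED. Without EX 1 the median in EX against PA was -0.0575.

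Ehhadh, the peroxisomal bifunctional enzyme and a well-known PPAR-alpha target in rodent liver, had the smallest p of all members in EX against PA. It read 6.11, 6.29, 6.27 and 5.73 in EX, 6.69, 6.80, 6.4 and 6.28 in PA, and 6.33, 6.43, 6.31 and 6.26 in SED. EX 4 was the lowest array and PA 1 and PA 2 were the highest, and EX and PA overlapped where EX 2 exceeded PA 4 by 0.01. The EX against PA difference was -0.44 ± 0.145 (SE), or 0.736-fold, with an unadjusted limma p of 0.0104 and an adjusted p of 1. Against SED the means stood on opposite sides, at -0.23 ± 0.145 in EX and 0.21 ± 0.145 in PA (limma, adjusted p = 0.468 and 0.495). Without EX 4 the EX value was -0.109, and without PA 2 the PA value was 0.124. In the F test over the groups its adjusted p by limma was 0.332. Its mean of 6.32 lay under the stricter filter, set at 6.51. With an offset of 32 added on the linear scale the EX against PA difference was -0.315.

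The Ehhadh promoter window is shown because this gene had that smallest p, with capitals as above, at chr11:92746159-92746458 on the plus strand (GRCr8, RefSeq). It held 1 CCAAT match and 1 GC box.
Ehhadh: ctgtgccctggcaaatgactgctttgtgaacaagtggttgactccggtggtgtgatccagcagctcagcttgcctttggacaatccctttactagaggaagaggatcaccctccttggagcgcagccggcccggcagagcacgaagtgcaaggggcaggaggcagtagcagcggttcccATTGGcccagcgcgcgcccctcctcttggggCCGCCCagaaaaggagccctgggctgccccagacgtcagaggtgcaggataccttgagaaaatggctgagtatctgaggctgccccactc

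Ech1, a dienoyl-CoA isomerase found in peroxisomes and mitochondria, read 10.85, 11.22, 11.24 and 11.14 in EX, 11.39, 11.35, 11.13 and 11.20 in PA, and 11.14, 11.19, 11 and 10.76 in SED. The PA against SED difference was 0.245 ± 0.123 (SE) with an adjusted limma p of 0.364, and the groups overlapped. Hsd17b4, the D-bifunctional enzyme of peroxisomes, had means of 10.25 ± 0.20 in EX, 10.39 ± 0.07 in PA and 10.13 ± 0.31 in SED (SD, n = 4 each), with SED 1 at 9.67 and EX 1 at 9.96 as the lowest arrays. Eci2, an enoyl-CoA isomerase of both organelles, had means of 10.71 ± 0.14, 10.82 ± 0.18 and 10.60 ± 0.23 in EX, PA and SED, with SED 1 the lowest at 10.26. Their PA against SED differences were 0.26 and 0.22, and 0.10 each without SED 1.

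**Figure D3:**
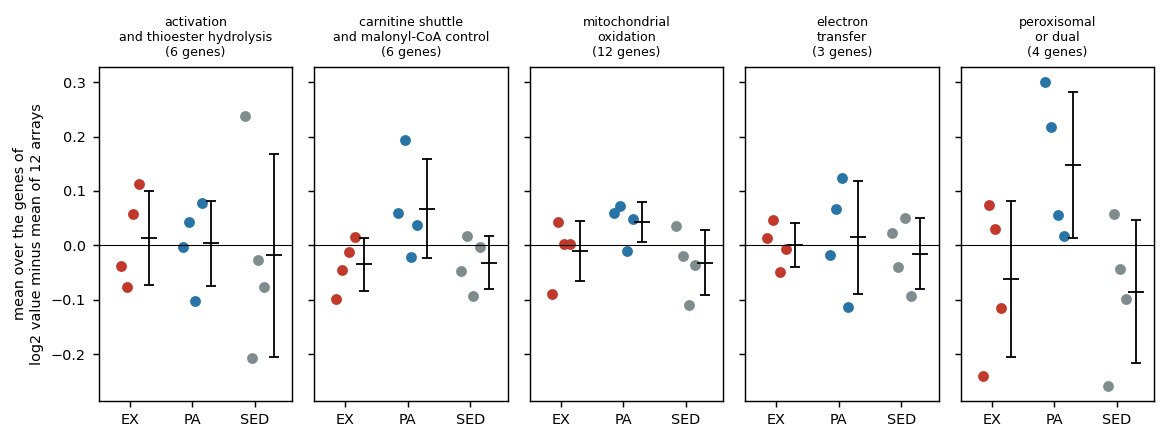
Mean, over the measured genes of each step, of the log2 value minus that gene's mean over the 12 arrays, for the 4 EX, 4 PA and 4 SED arrays (points) with the mean and SD of each group. The groups overlap in every step, and the peroxisomal genes reach from -0.258 on SED 1 and -0.24 on EX 1 to 0.30 on PA 1.

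Averaged over all 31 genes, the deviation from each gene's mean over the 12 arrays was -0.016 ± 0.05 in EX, against 0.051 ± 0.051 in PA and -0.034 ± 0.038 for SED arrays (log2 units, SD, n = 4 each). EX 1 lay at -0.091 and the other EX arrays between 0.007 and 0.010, PA ran from -0.009 to 0.109 and SED from -0.066 to 0.020. The groups overlapped, and 3 of the 4 PA arrays lay above all the others.

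The single arrays moved in a way the list mean hides. On SED 1, 8 of the 31 genes had their lowest value of all arrays and 8 their highest, and the mean size of the deviation was 0.235 against 0.084 to 0.142 on the other arrays. Over all tested genes SED 1 held the lowest value for 34.4% and the highest for 22.5%, against 25.8% and 25.8% of the members. The genes at their highest there included Cpt1b, Acot2, Acsl5, Etfb, Acads and Acadsb, and those at their lowest included Cpt2, Hsd17b4, Eci2, Etfdh, Etfa, Acadvl and Acsl1. The peroxisomal mean was lowest on SED 1 (-0.258) and EX 1 (-0.24), the arrays with the highest Gapdh 3' minus 5' differences (1.56 and 1.35), and highest on PA 1 (0.30), the array with the lowest (0.96). The beta-actin control probe sets ordered the arrays differently. Their difference was 1.70 on SED 1, 1.67 on SED 3, 1.63 on EX 1 and EX 3 and 1.48 on PA 1, and lowest on PA 3 at 1.37. The part of RNA quality in the peroxisomal values was not tested.

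**Figure D4:**
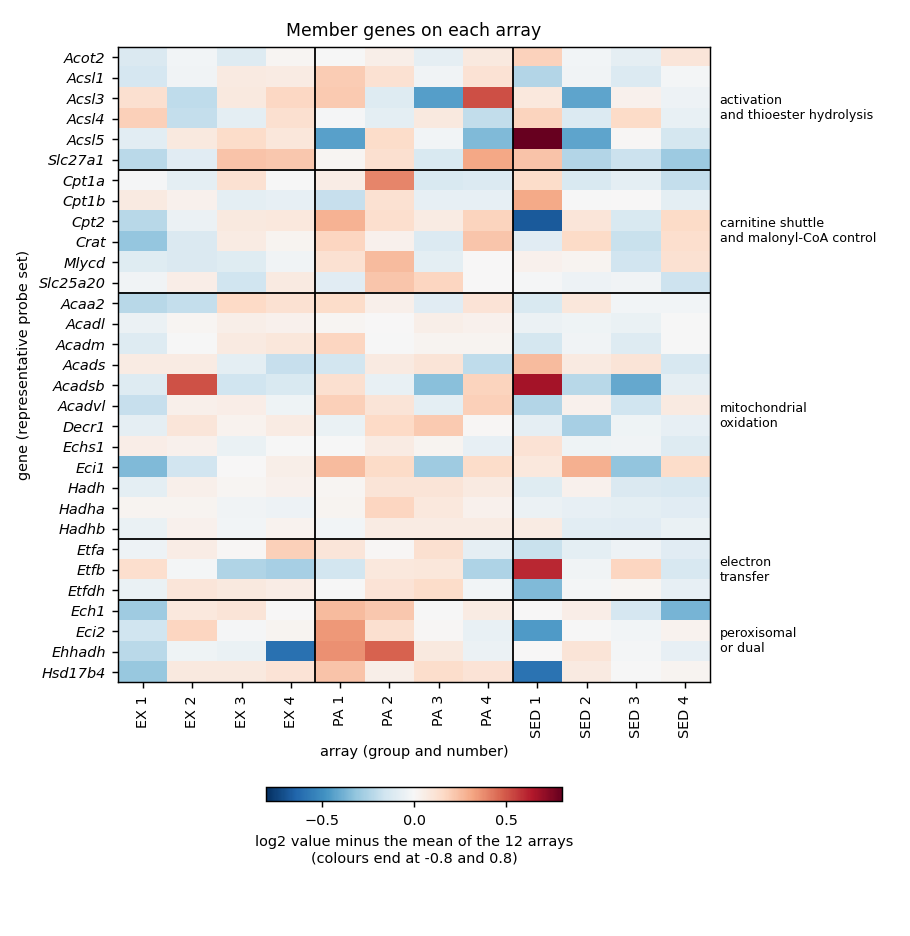
Log2 value minus the mean of the 12 arrays for the representative probe set of each of the 31 genes (rows, grouped by step) on the EX, PA and SED arrays (columns), in colours that end at -0.8 and 0.8. SED 1 shows the strongest colours in both directions, from Acsl5 and Acadsb above their means to Cpt2 and Hsd17b4 below them, while PA 1 and PA 2 are mostly above and EX 1 mostly below.

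Of 63 other genes of fatty acid metabolism, 58 had a probe set and 53 were tested, and 0 passed in any comparison. In PA against SED 43 had a higher mean and 9 a lower one (median 0.12), in EX against SED 36 and 16 (median 0.0675), and in EX against PA 15 and 37 (median -0.035). In EX against SED the genes with the smallest p were Slc27a4, a fatty acid transport protein, at -0.45 ± 0.148 (SE), and Pex7, the import receptor for peroxisomal enzymes with the amino-terminal signal, at 1.02 ± 0.35, with adjusted limma p-values of 0.189 and 0.203. Pex7 read 5.23 on SED 1 and 6.58 to 7.21 on the other SED arrays, and without SED 1 its difference was 0.582 and that of Slc27a4 -0.306.

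In PA against SED Pex7 differed by 1.08 ± 0.35 (SE) and Ivd, the isovaleryl-CoA dehydrogenase of leucine breakdown, by 0.415 ± 0.141, with adjusted limma p-values of 0.216 and 0.229. Ivd read 7.99 on SED 1 and 8.58 to 8.68 on the other SED arrays, and without SED 1 the differences were 0.644 for Pex7 and 0.256 for Ivd. In EX against PA they were Acad10 and Acad8, both of the acyl-CoA dehydrogenase family, at -0.355 ± 0.114 and -0.27 ± 0.0988 (limma, adjusted p = 1 for both). Among the 19 tested genes of other mitochondrial acyl-CoA metabolism 1 was higher and 18 lower in EX against PA (median -0.08). Of 13 other peroxisomal genes 6 were higher and 7 lower (median -0.01), of 7 uptake and binding genes 1 was higher and 6 lower (median -0.0425), and among 14 genes that control fatty acid oxidation, such as Ppara and Ppargc1a, 7 were higher and 6 lower (median 0.025). In EX against SED the control genes split into 12 higher and 2 lower (median 0.201). The other peroxisomal genes split into 11 and 2 (0.107), uptake and binding into 3 and 3 (0), and other mitochondrial genes into 10 and 9 (0.0025). In PA against SED these lists, in the same order, split into 11 and 3 (0.142), 12 and 1 (0.145), 5 and 2 (0.0475), and 15 and 3 (0.12). SED 1 enters these counts, and no list was tested.

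RefSeq promoter windows were at hand for 28 of the 33 genes. A GC box stood in 20 of them (71.4%), against 33.1% of all 33469 RefSeq windows of the same length. The overlapping windows of Hadha and Hadhb both count among the 20. CCAAT was found in 12 (42.9%, against 37.5%), AGGTCA in 7 (25%, against 16.2%), namely those of Acadvl, Echs1, Eci1, Eci2, Hadhb, Hsd17b4 and Slc27a1, and 2 AGGTCA copies with 1 base between them, written AGGTCANAGGTCA, in 0 (against 0.0538%). All windows of the table, including those of genes of other kinds, stand behind the comparison, and it was not tested.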

How the data were processed

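Log2 values of 31099 probe sets on 12 arrays were deposited by the authors in 1 table. MAS5 and RMA are both named, per the submitters' processing notes, and which of them gave these values is not stated, so the background correction is unknown. RNA was biotin-labelled from total RNA of left ventricle, per the labels' protocols. Values were used as deposited. Groups came from the sample titles. The 57 control probe sets were left out, and the brightest 60%, with a mean log2 value of at least 4.94, were tested. Symbols came from the platform annotation, with 20826 probe sets of 1 symbol, 436 of several and 9780 of none, and were looked up by gene identifier in RefSeq (68 not found). The brightest tested probe set stood for a gene.

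Group differences were fitted in R 4.3.3 by limma 3.58.1 (3 group means over 12 arrays, 9 residual degrees of freedom, two-sided moderated tests, Benjamini-Hochberg over all tested probe sets, threshold 0.05), and the steps were tested on simulated data. Values on every array are given for the 5 members with the smallest p in each comparison and for 13 fixed members, and further probe sets where a difference departs by over 0.3. Further probe sets of Acsl1, Acsl5, Hadh and Hadha are given as well, chosen after their values were seen. The members, lists and alternatives were chosen with earlier results of these data known. Arrays carry no read depth, and their number limits the precision. Plots used Python 3.11.15 and its matplotlib 3.10.9.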

Additional observations from a re-analysis of the deposited data

Results flagged for a closer look

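Within each group of 4 arrays, 7 of 96 sets of values had 1 array set far from the other 3 by Dixon's criterion, which chance meets in about 1 of 20 sets. In EX these were Acadsb, which read 5.53 on EX 2, Hsd17b4, which read 9.96 on EX 1, and the mean deviation over all members, which was -0.091 on EX 1. In PA they were Acadm, which read 12.35 on PA 1, and Hadhb, which read 12.01 on PA 1 with the other 3 arrays equal at 12.10. In SED they were Eci2, which read 10.26 on SED 1, and Hsd17b4, which read 9.67 on SED 1. EX 1 and SED 1 also had the highest Gapdh 3' minus 5' differences, and the part of RNA quality was not tested.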

How the results depend on the processing

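No member probe set passed in any comparison or in the F test under any of the alternatives run (0 throughout): quantile normalization, median centring, no filter and a stricter one, an offset of 32, another variance model, array weights, fits of the compared groups only, the mean of a gene's probe sets, and 1 array dropped at a time. Elsewhere on the array a few probe sets did pass in EX against SED: 8 with array weights, 2 without SED 1 and 4 with quantile normalization without SED 1, and 6 passed the F test with array weights. The median over members in PA against SED was 0.0694 after quantile normalization, against 0.12, and in EX against SED it was 0.025 with array medians centred, against 0.045, and the causes were not tested. Leaving out single arrays gave medians of 0.0908 to 0.131 in PA against SED, 0.0242 to 0.0667 in EX against SED and -0.0808 to -0.0417 in EX against PA, and without SED 4 the EX against SED median and without PA 3 the EX against PA median moved by over 1.5 times (0.0242 and -0.0808), while members with a higher mean numbered 22 to 27, 19 to 21 and 5 to 10. Of the 19 tested members with values on every array, 17, 15 and 12 kept their sign in every setting in PA against SED, EX against SED and EX against PA. Every group holds the same replicate numbers, so the replicate number as a block could not move a difference of group means. The medians therefore stayed at 0.12, 0.045 and -0.05, while the calls, which could have changed, stayed at 0. Same-numbered arrays correlated by -0.208 to 0.134. Arrays of unlike numbers were not compared with them, and whether the numbers pair the arrays was not tested. Alternatives added after seeing the data were quantile normalization with SED 1 left out, with medians of 0.0863, 0.0436 and -0.0448, and leaving out SED 1 and EX 1 together, with 27, 21 and 9 members higher. Acot1, under the filter on dim probe sets, and Acadsb, with a mean of 5.02 just above it, are the members that signal over background limits most. Acsl3 and Ehhadh, with means of 6.21 and 6.32, passed that filter but not the stricter one.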
